A study of Sus scrofa with 6 samples.

Results

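The AMPA and NMDA receptor subunits are the proteins that build the main excitatory receptors of the brain, and their messenger RNA was followed here in brain libraries of domesticated pigs and wild boars. The members are 10 genes chosen by name, 4 AMPA subunits (GRIA1 to GRIA4) and 6 NMDA subunits (GRIN1, GRIN2A, GRIN2B, GRIN2C, GRIN2D and GRIN3A). A row with a matching symbol was found for 8 of the 10 among 18225 genes listed, each under 1 identifier. GRIN1 and GRIN2A matched no row and were not analysed here, so neither the ratio of GRIN2A to GRIN2B nor any level relative to the obligatory subunit GRIN1 is given. RNA came from 3 Rongchang pigs, a Chinese domesticated breed, and 3 wild boars, with 1 polyadenylated RNA library per animal. All animals were 210 days old, and the labels name no treatment, no sex, no origin of the animals and no brain region. The title of the series asks about immune differences between the domesticated and the wild animals, and the receptor genes are examined as one further comparison of the same libraries.

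Glutamate released by excitatory neurons opens both receptor classes on the receiving cell. AMPA receptors are assemblies of GRIA subunits that carry the fast current, and GRIA2, once its transcript is edited, makes the channel nearly impermeable to calcium. NMDA receptors pair GRIN1 with GRIN2 or GRIN3 subunits. Those of GRIN1 with GRIN2 pass calcium and need a co-agonist, glycine or D-serine, as well as glutamate. In mammals GRIN2B and GRIN3A are prominent early in postnatal life, GRIN2C is best known from cerebellar granule cells, and GRIN2D from interneurons and subcortical regions.

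Values are FPKM, fragments counted on a transcript divided by its length and by the size of the library, which allow levels of different genes to be set side by side. Depth is unknown for such values. The library sums of FPKM ran from 568921 to 687359. The 13 mitochondrially encoded genes made up 45.2%, 39.9% and 30.0% of these sums in Rongchang pigs 1, 2 and 3 and 46.8%, 41.0% and 43.6% in wild boars 1, 2 and 3, more in the wild boar at each number. The labelled tissue was checked against marker genes, and neuronal, astrocyte and oligodendrocyte genes were abundant in all 6 libraries. The summed level of 7 neuronal genes was 1955 to 2722 FPKM in Rongchang and 1866 to 2568 in wild boar. The cortical transcription factor TBR1 was at 19.8 to 41.8 FPKM over the 6 libraries. GABRA6, a marker of cerebellar granule cells, was at 0.0288 to 0.185, the lowest of the cerebellar list. The other genes of that list with a row were higher. ZIC2 was at 4.527 to 7.047 FPKM, ZIC1 at 2.645 to 4.425 and CALB1 at 1.885 to 3.085. NEUROD1 was at 0.3024 to 1.247 FPKM and CBLN3 at 0.3253 to 0.505. The brain region sampled was not tested. In such tissue libraries, fewer cells of a type and less RNA per cell cannot be told apart. In a principal component analysis, the number 2 libraries of both breeds separated from the remaining 4, and the fold changes and ratios of the subunits are given with and without them.

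GRIA2 was the most abundant subunit in each of the 6 libraries. It stood at 42.5, 83.1 and 56.2 FPKM in Rongchang pigs 1, 2 and 3, and at 38.6, 69.3 and 39.2 FPKM in wild boars 1, 2 and 3. The library numbered 2 was the highest of its breed in both, and the breeds overlapped. GRIA3 stood at 28.7, 50.0 and 40.1 FPKM in the Rongchang pigs and at 23.3, 43.0 and 25.7 FPKM in the wild boars. GRIA1, the subunit whose delivery to synapses is best known from plasticity, stood at 28.8, 47.9 and 32.4 FPKM in the Rongchang pigs and at 22.2, 35.6 and 26.1 FPKM in the wild boars. For both genes the second library of each breed was again the highest, and wild boar 2 lay above Rongchang 1 and 3. GRIA4, a subunit of fast-spiking interneurons among other cells, was lower, at 8.26, 10.03 and 8.77 FPKM in the Rongchang pigs and 6.42, 9.06 and 7.04 FPKM in the wild boars.

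The NMDA subunits with a row were far less abundant than the AMPA subunits. GRIN3A, whose inclusion lowers calcium entry through the receptor, stood at 2.78, 3.71 and 3.43 FPKM in the Rongchang pigs and at 1.98, 2.31 and 2.01 FPKM in the wild boars. All 3 wild boars lay below all 3 Rongchang pigs. GRIN2B, which gives receptors a slow decay, stood at 1.54, 3.08 and 1.92 FPKM in the Rongchang pigs and 1.73, 2.75 and 2.13 FPKM in the wild boars, with the libraries of the breeds interleaved. GRIN2D, which gives a slower decay still, stood at 2.24, 1.71 and 1.83 FPKM in the Rongchang pigs and 1.56, 2.37 and 1.68 FPKM in the wild boars, also interleaved. GRIN2C was near the lower end of the scale, at 0.141, 0 and 0.123 FPKM in the Rongchang pigs and 0.073, 0 and 0 FPKM in the wild boars. Of 10 housekeeping genes with a row, 0 were listed at 0 in any library.

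**Figure D1:**
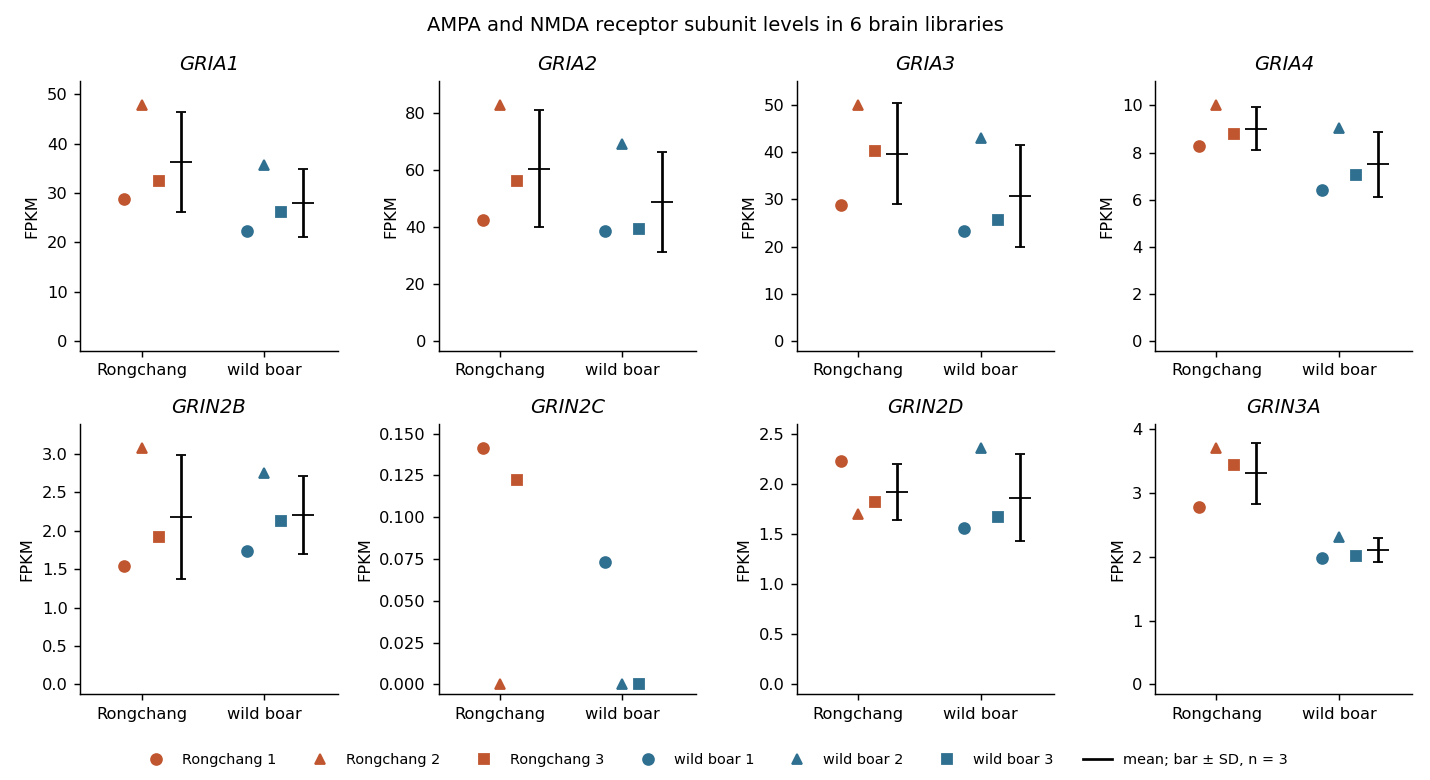
FPKM (y axis, a scale of its own per panel) of the 8 subunits with a row, in 3 Rongchang and 3 wild boar libraries; point shapes give the animal number, and black bars the mean ± SD (n = 3), which is left out for GRIN2C because of values listed at 0. The triangles, libraries numbered 2, are the highest of their breed for GRIA1 to GRIA4, GRIN2B and GRIN3A, and the breeds are fully apart for GRIN3A.

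The order of the levels was GRIA2, GRIA3, GRIA1, GRIA4, GRIN3A, GRIN2B, GRIN2D and GRIN2C by the mean over the 6 libraries. GRIA2 had rank 1, GRIA4 rank 4 and GRIN2C rank 8 in every library. GRIA2 exceeded GRIA3 in 6 of 6 libraries, by 1.56 times in the mean, although their ranges over animals overlapped. GRIA3 exceeded GRIA1 in 4 of 6 libraries, and their means differed by 1.09 times, less than the spread between libraries. GRIA1 exceeded GRIA4 in 6 of 6 libraries with no overlap of their ranges, and the means stood 3.89 times apart. GRIA4 likewise exceeded GRIN3A in 6 of 6 without overlap, by 3.06 times. Places 5 to 7 were not fixed. GRIN3A exceeded GRIN2B in all 3 Rongchang libraries but in 1 of 3 wild boars, and GRIN2B exceeded GRIN2D in 2 of 3 Rongchang libraries and 3 of 3 wild boars. GRIN2D lay above GRIN2C in 6 of 6 libraries without overlap. The order was read from these data and carries no test. It also depends on the transcript lengths used in quantification, and the sources used here do not give the annotation behind them.

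GRIA2 also made up the largest part of the AMPA pool in every library. It contributed 39.3% to 44.1% of the summed FPKM of the 4 AMPA subunits, with means of 41.2% ± 2.13 in Rongchang and 42.3% ± 2.09 in wild boar (SD, n = 3). GRIA3 contributed 25.7% to 29.2%, GRIA1 22.7% to 26.6% and GRIA4 5.25% to 7.63%. The shares of each subunit overlapped between the breeds.

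Ratios within a library do not depend on how libraries are scaled, and 5 were tested between the breeds. The GRIA1 to GRIA2 ratio was 0.678, 0.577 and 0.576 in Rongchang and 0.577, 0.514 and 0.665 in wild boar, a log2 difference of −0.06 (exact permutation test, two-sided, p = 0.6; adjusted over the 5 ratios, 0.875). The GRIA3 to GRIA2 ratio was 0.663 ± 0.0565 in Rongchang and 0.626 ± 0.0265 in wild boar, a log2 difference of −0.08 (exact permutation test, p = 0.5, adjusted 0.875). The GRIA4 to GRIA2 ratio was 0.157 ± 0.0368 and 0.159 ± 0.0252, a log2 difference of 0.03 (exact permutation test, p = 0.9, adjusted 0.9). Within each breed the library numbered 2 had the lowest GRIA4 to GRIA2 ratio, 0.121 in Rongchang and 0.131 in wild boar. The 5 inhibitory neuron markers with a row did not move as one there. In Rongchang 2, PVALB, VIP and SLC32A1 were the lowest of the breed while GAD1 and GAD2 were the highest, and in wild boar 2 PVALB was the lowest and the other 4 were the highest. Their sum was 284, 213 and 295 FPKM in Rongchang pigs 1, 2 and 3 and 234, 249 and 273 FPKM in wild boars 1, 2 and 3, with none of the 5 at 0 in any library. The part of these cells in the ratio was not tested.

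The summed AMPA subunits exceeded the sum of the 4 NMDA subunits with a row by 16.2 to 22.5 times. GRIN1 and GRIN2A are not in that sum, so it is no ratio of whole receptor classes. It stood at 19.2 ± 3.17 in Rongchang and 18.3 ± 2.45 in wild boar, a log2 difference of −0.06 (exact permutation test, p = 0.7, adjusted 0.875). In both breeds the library numbered 2 had the highest value, 22.5 and 21.1. The GRIN2D to GRIN2B ratio spread widely in Rongchang, at 1.46, 0.554 and 0.951, and narrowly in wild boar, at 0.90, 0.861 and 0.788, with a log2 difference of −0.11 (exact permutation test, p = 0.7, adjusted 0.875). The smallest p that 3 against 3 libraries allow is 0.1, so none of these tests could have passed 0.05. Without both libraries numbered 2 the GRIN2D to GRIN2B difference was −0.48, that of GRIA3 to GRIA2 −0.14, of GRIA1 to GRIA2 −0.01, of GRIA4 to GRIA2 −0.01 and of the AMPA to NMDA sums −0.05. No fold is given for GRIN2C, which is listed at 0 in 3 libraries.

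The ratios of GRIN3A to GRIN2B, GRIN3A to GRIN2D and GRIA1 to GRIA3 were looked at after values were seen and are given with no test. GRIN3A to GRIN2B was 1.81, 1.20 and 1.78 in Rongchang and 1.14, 0.842 and 0.943 in wild boar, with no overlap. Its log2 difference was −0.70 (−0.79 without both libraries numbered 2). GRIN3A made up 44% ± 2.75 of the summed NMDA subunits with a row in Rongchang and 34.2% ± 2.96 in wild boar. GRIN2B made up 28.5% ± 6.92 and 35.3% ± 2.54 of it. The GRIN3A to GRIN2D ratio overlapped between the breeds, at 1.24 to 2.17 in Rongchang and 0.978 to 1.27 in wild boar. Its log2 difference was −0.59 (−0.31 without both libraries numbered 2). The GRIA1 to GRIA3 ratio overlapped too, at 0.8076 to 1.003 in Rongchang and 0.8281 to 1.015 in wild boar, a log2 difference of 0.0168.

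**Figure D2:**
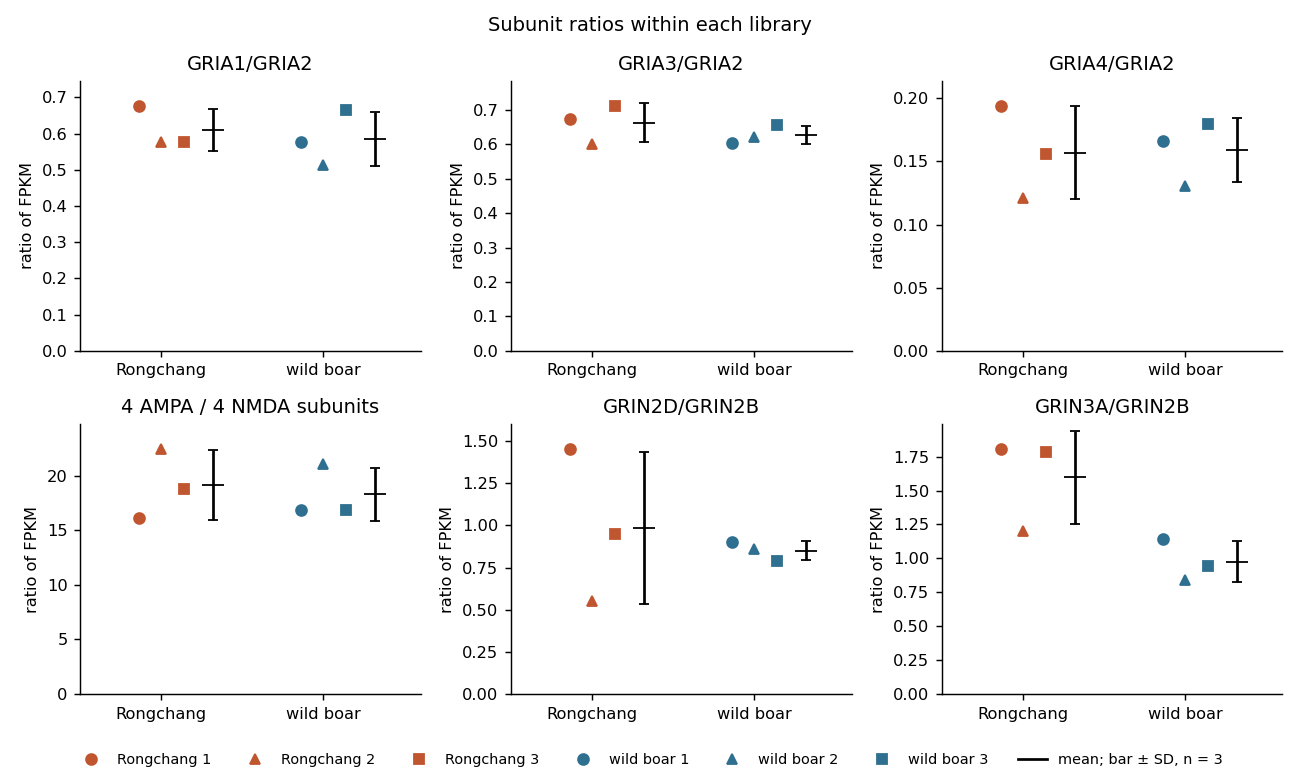
Ratios of FPKM within each library (y axes start at 0) for 6 pairs or sums of subunits; point shapes give the animal number and black bars the mean ± SD (n = 3). The breeds overlap in 5 panels, and in the GRIN3A to GRIN2B panel all wild boars, at most 1.14, lie below all Rongchang pigs, at least 1.20. That ratio was chosen after its values were seen.

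Between the breeds, 5 of the 7 subunits tested, the 4 AMPA subunits and GRIN3A, had lower mean levels in wild boar by more than the median gene did. By definition, all genes tested lie in equal numbers above and below the median gene. None of the 7 passed the test over all genes. Levels were compared on log2(FPKM + 1), wild boar minus Rongchang, with limma over the 13152 genes that reached 1 FPKM in at least 3 libraries. This filter kept 7 of the 8 subunits and left out GRIN2C. Of the 7, 0 were called at an adjusted p under 0.05, where 1 gene of all tested was called (0.00760%, lower in wild boar). At an unadjusted p under 0.05, 1 of the 7 was lower and 0 higher, against 5.42% and 0.578% of all genes tested. The fold change lay below 0 for 6 of the 7 and above it for 1, against 77.9% and 22.1% of all genes, and the median was −0.30, against −0.13 over all genes.

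GRIN3A had the largest difference of the 7, with means of 3.31 ± 0.474 FPKM in Rongchang against 2.10 ± 0.185 in wild boar (SD, n = 3). Its log2 fold change was −0.47 with a standard error of 0.15 (limma, adjusted p = 0.789, unadjusted 0.014), or −0.34 relative to the median gene. The added 1 FPKM shrinks differences at such low levels more than those of the GRIA genes. With 0.1 FPKM added instead, the log2 fold change of GRIN3A was −0.62. GRIN3A was the 1 member whose breeds did not overlap, 1 of 7 lower and 0 of 7 higher, against 11.4% and 1.12% of all genes tested. The fold change remained below 0 in all 18 alternatives, between −0.62 and −0.30, and the adjusted p lay between 0.228 and 1. Expressed relative to neuronal markers it was −0.41. The unadjusted p was 0.056 without Rongchang 2 and 0.133 without both libraries numbered 2 under median scaling. The sum of the hippocampal marker list, singled out after its values were seen, was also lower. For the 4 genes of the list with a row it was 8.38 to 9.05 FPKM in Rongchang and 4.27 to 6.22 in wild boar. None of the 4 was at 0, and 0 of the 2 genes tested were called. C1QL2 made up most of this sum, at 6.12 ± 0.299 and 3.26 ± 1.09 FPKM. NEUROD1, also listed as a cerebellar marker, was at 1.06 ± 0.183 and 0.588 ± 0.278, and DSP at 0.420 ± 0.0483 and 0.261 ± 0.105, neither tested. PROX1, the other gene tested, overlapped between the breeds, at 1.13 ± 0.462 and 0.920 ± 0.383 FPKM (log2 fold change −0.14). The part of this list in the GRIN3A difference was not tested. The general neuronal sums given above overlapped between the breeds.

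The 4 AMPA subunits had similar fold changes, from −0.38 to −0.24. GRIA3 had means of 39.6 ± 10.7 FPKM in Rongchang against 30.7 ± 10.8 in wild boar, and its log2 fold change was −0.38 ± 0.28 (standard error). GRIA1 had means of 36.4 ± 10.1 and 28.0 ± 6.89 FPKM (−0.36 ± 0.25), GRIA2 of 60.6 ± 20.6 and 49.0 ± 17.6 FPKM (−0.30 ± 0.31), and GRIA4 of 9.02 ± 0.909 and 7.51 ± 1.38 FPKM (−0.24 ± 0.17). The libraries of the breeds overlapped for each of the 4, and adjusted p in limma lay between 0.843 and 0.867. Once all libraries were set to a common median, which moved the median gene to 0.02, the 4 fold changes were −0.21 for GRIA3, −0.19 for GRIA1, −0.13 for GRIA2 and −0.09 for GRIA4. Scaled to the sum without mitochondrial genes, they were −0.35, −0.33, −0.27 and −0.22, and GRIN3A was −0.45. Single libraries moved the 4 values by over 1.5 times. Without wild boar 2 the log2 fold change was −0.64 for GRIA3, −0.54 for GRIA1, −0.57 for GRIA2 and −0.37 for GRIA4, and without Rongchang 2 it was −0.19, −0.15, −0.05 and −0.17, a move of under 1.5 times for GRIA4 alone. Without wild boar 1 it was −0.21, −0.21, −0.16 and −0.15. Without Rongchang 1 GRIA3 (−0.58) and GRIA2 (−0.53) moved as far, and without wild boar 3 GRIA2 did (−0.17). GRIN2B (0.03 ± 0.22, adjusted p in limma 0.980) lay above the median gene, and GRIN2D (−0.03 ± 0.17, adjusted p 0.969) did too. The fold change of GRIN2D turned positive after median scaling (0.08), quantile normalization (0.09) and scaling to neuronal markers (0.01).

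**Figure D3:**
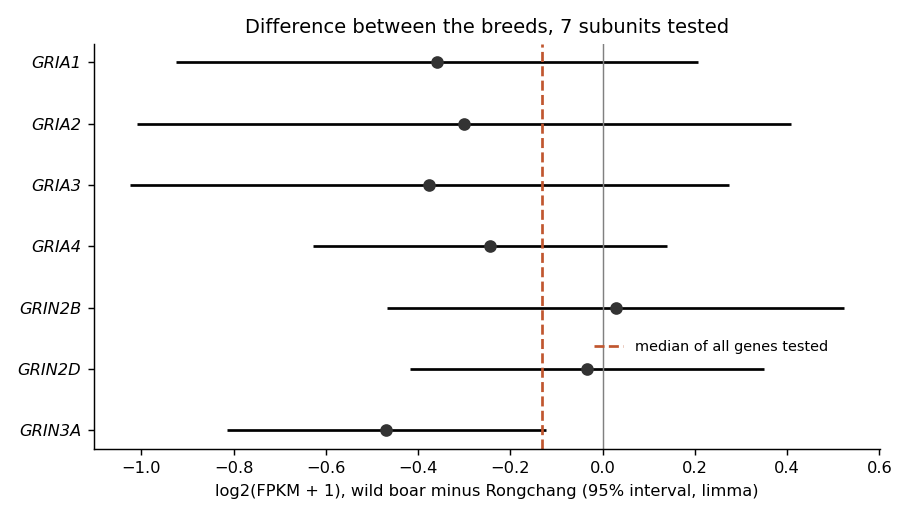
Fold change in log2(FPKM + 1), wild boar minus Rongchang (x axis), for the 7 subunits tested; points are limma estimates, bars 95% intervals, and the dashed line the median of all genes tested at −0.13. The intervals of GRIA1 to GRIA4, GRIN2B and GRIN2D include 0, and that of GRIN3A, from −0.81 to −0.12, includes the median gene.

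Same-numbered animals of the breeds resembled each other in these libraries, so the subunits were also compared number by number. The correlation of their deviations from the breed means was 0.59 for number 2, against 0.28 and 0.37 for numbers 1 and 3. The labels do not pair animals across the breeds. This pairing was read from the same values, so the p-values with the number as a block are given as a description. GRIA1 was lower in the wild boar at numbers 1, 2 and 3, by log2 differences of −0.36, −0.42 and −0.30. GRIA2 differed by −0.14, −0.26 and −0.51, and GRIA3 by −0.29, −0.21 and −0.62. GRIA4 (−0.32, −0.13 and −0.28) and GRIN3A (−0.34, −0.51 and −0.56) were also lower at each number, which makes 5 of 7, against 38.5% of all genes tested; 0 of 7 were higher at each number, against 5.10%. GRIN2B was lower in the wild boar at 1 of the 3 numbers and GRIN2D at 2. With the number as a block, 4 of the 7 had an unadjusted p under 0.05 and a lower level in wild boar, against 16.0% of all genes, and 0 a higher one, against 1.41%. The 4 were GRIA1 (0.00649), GRIN3A (0.00905), GRIA3 (0.0152) and GRIA2 (0.0281). None of the 7 passed over all genes with the block, with adjusted p in limma from 0.228 to 0.922. With the block and median scaling, GRIN3A alone of the 7 had an unadjusted p under 0.05 (0.0299).

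Within each breed, the library numbered 2 held more AMPA subunit RNA than the other pair of libraries. For GRIA2 the level in library 2 was 1.68 times the mean of libraries 1 and 3 in Rongchang and 1.78 times in wild boar. The factors were 1.45 and 1.76 for GRIA3, 1.57 and 1.47 for GRIA1, and 1.18 and 1.35 for GRIA4. GRIN2B followed with 1.78 and 1.42, and GRIN3A with 1.19 and 1.16. For GRIN2D the factor was 0.84 in Rongchang, where library 2 was the lowest, and 1.46 in wild boar, where it was the highest; the difference between these factors was not tested. In all, 6 of the 7 subunits were higher in library 2 of both breeds, against 42.3% of all genes tested. This pattern was noticed in the data and is given as a description.

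Cell type markers moved with it. On log2(FPKM + 1), library 2 minus the mean of the other pair was 0.75 in Rongchang and 0.82 in wild boar for GRIA2. The median over 7 neuronal markers was 0.23 and 0.40, and over 4 excitatory neuron markers 0.44 and 0.55. Summed excitatory markers were 385 FPKM in Rongchang 2 against 279 and 341, and 385 in wild boar 2 against 255 and 290. The summed neuronal markers were highest in wild boar 2 (2568 FPKM against 1866 and 2423) but not in Rongchang 2 (2596 against 1955 and 2722), and the inhibitory sums given above were lowest in Rongchang 2 and in the middle in wild boar 2. Microglia markers went the other way, with medians of −0.70 and −0.96 over 4 genes and sums of 48.2 FPKM in Rongchang 2 against 82.4 and 84.4, and 37.6 in wild boar 2 against 84.2 and 67.6. The 3 blood genes with a row were lowest there too, at a sum of 68.5 FPKM against 140 and 192 in Rongchang and 58.5 against 276 and 214 in wild boar. HBM was listed at 0 in wild boar 2, and none of the other genes named in these lists was at 0 there. Oligodendrocyte markers had medians of −0.15 and −0.48. The part of cell make-up in the subunit levels was not tested. Without both libraries numbered 2, the fold changes between the breeds were −0.46 for GRIA3, −0.33 for GRIA1, −0.32 for GRIA2, −0.30 for GRIA4, −0.45 for GRIN3A, −0.21 for GRIN2D and 0.10 for GRIN2B, each with an adjusted p of at least 0.552 in limma.

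**Figure D4:**
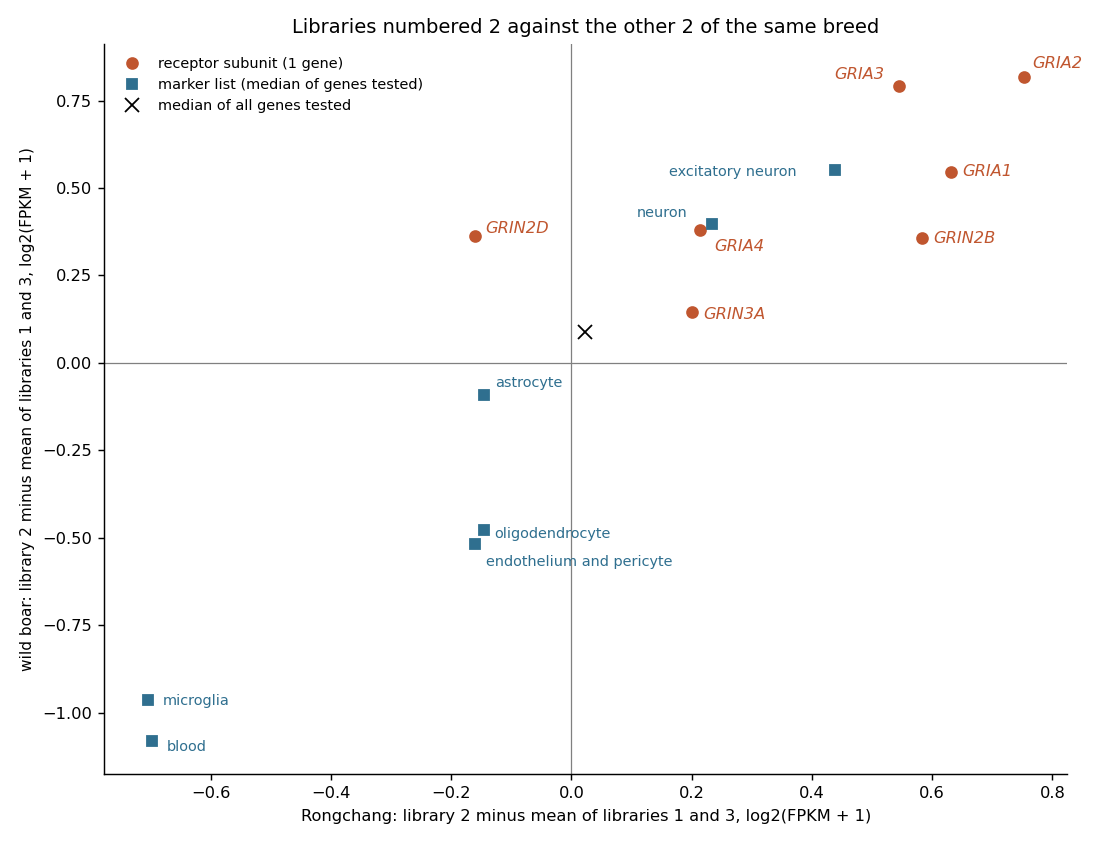
Library 2 minus the mean of libraries 1 and 3 in log2(FPKM + 1), in Rongchang (x axis) and in wild boar (y axis), for 7 subunits (circles), the medians of 7 marker lists (squares) and the median of all genes tested (cross, 0.02 and 0.09). The AMPA subunits and GRIN2B lie at the upper right with the neuron and excitatory neuron lists, GRIN2D lies left of 0 in Rongchang, and the microglia and blood lists lie at the lower left.

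The genes whose profile over the 6 libraries was nearest to that of GRIN2B, by the root mean square difference of centred log2(FPKM + 1), were PWWP3B (0.042), the HSP90 co-chaperone CHORDC1 (0.054) and the microtubule-binding protein gene EML1 (0.058), among 8531 genes with a symbol. PWWP3B stood at 8.43, 13.0 and 9.31 FPKM in the Rongchang pigs and 8.60, 11.7 and 10.2 FPKM in the wild boars. Like GRIN2B, it was highest in the library numbered 2 of each breed, which follows from its choice by likeness of profile. The added 1 FPKM shrinks the profile of GRIN2B, at 1.54 to 3.08 FPKM, more than those of these more abundant genes. The likeness was measured on this scale alone.

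Other genes of the glutamate synapse were taken from 9 lists of 91 genes, of which 66 had a row and 64 were tested. None passed over all genes in limma (0 higher and 0 lower), and at an unadjusted p under 0.05, 1 of 64 was higher and 1 lower, against 0.578% and 5.42% of all genes tested. Of the 64, 53 lay below 0, against 77.9% of all genes, and 35 below the median gene, with a median of −0.14, near that of all genes.

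Among kainate and delta receptor subunits, the relatives of the AMPA subunits, 0 of 7 were called and the median was −0.14. GRIK2, the most abundant, stood at 18.5 ± 3.39 FPKM in Rongchang against 20.7 ± 1.17 in wild boar (log2 fold change 0.17). GRIK1 stood at 6.40 ± 0.669 and 5.04 ± 1.15 (−0.30), GRIK3 at 6.53 ± 1.53 and 5.06 ± 2.40 (−0.36) and GRIK5 at 12.7 ± 0.792 and 10.9 ± 1.51 (−0.21). The remaining NMDA subunit gene, GRIN3B, was at 0.036 to 0.190 FPKM and was not tested. Of the metabotropic receptors, which signal through G proteins, 0 of 7 were called and the median was −0.05. GRM3, the most abundant, stood at 42.5 ± 2.66 and 41.7 ± 5.75 FPKM (−0.03), GRM5 at 19.1 ± 5.27 and 17.3 ± 6.72 (−0.16) and GRM4 at 3.18 ± 0.159 and 2.85 ± 0.791 (−0.14).

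Proteins that escort or anchor the receptors were next compared. Of the AMPA auxiliary and biogenesis genes, 5 of 15 had a row, 0 of 5 were called, and the median was −0.22. CACNG7, a transmembrane AMPA regulatory protein, was the most abundant at 106 ± 8.58 and 106 ± 13.96 FPKM (0.00), above each GRIA gene. CPT1C, which aids the export of AMPA receptors, stood at 25.9 ± 1.80 and 20.04 ± 5.19 (−0.38), PORCN at 13.6 ± 1.64 and 11.6 ± 2.28 (−0.22) and GSG1L, an auxiliary subunit, at 13.2 ± 4.56 and 10.8 ± 0.727 (−0.22). Of 16 scaffold and anchoring genes tested 0 were called, with a median of −0.11. DLG4, which encodes PSD-95, stood at 81.9 ± 8.37 and 83.4 ± 4.24 FPKM (0.03). HOMER1, a scaffold that links metabotropic receptors to the postsynaptic density and has an activity-induced short form, stood at 22.8, 27.0 and 18.6 FPKM in the Rongchang pigs and 29.4, 46.5 and 33.0 FPKM in the wild boars, with no overlap (log2 fold change 0.64, limma adjusted p = 0.789, unadjusted 0.0194). HOMER3 did not overlap either, in the other direction, at 8.16 ± 1.40 and 5.79 ± 1.37 FPKM (−0.44). PICK1, which binds the tail of GRIA2, stood at 22.9 ± 3.89 and 17.5 ± 3.75 (−0.37).

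Of 12 kinase and phosphatase genes tested 0 were called, with a median of −0.17. CAMK2A, the kinase subunit of long-term potentiation, stood at 217 ± 39.1 and 232 ± 30.1 FPKM (log2 fold change 0.11). CAMK2D stood at 19.6 ± 1.63 and 16.2 ± 1.66 (−0.26) and the phosphatase gene PTPN5, which acts on NMDA receptors, at 15.7 ± 1.68 and 12.8 ± 2.70 (−0.29). Among 10 genes of glutamate supply and clearance 0 were called, with a median of −0.22. SLC1A1, the neuronal glutamate transporter, stood at 11.1, 11.2 and 13.0 FPKM in the Rongchang pigs and 7.22, 8.82 and 9.96 FPKM in the wild boars, with no overlap (log2 fold change −0.41, limma adjusted p = 0.789, unadjusted 0.035). SLC17A6, a vesicular glutamate transporter, stood at 4.55 ± 0.787 and 3.33 ± 0.768 (−0.36), and the astrocyte transporter SLC1A3 at 305 ± 64.0 and 311 ± 64.8 (0.03).

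The co-agonist list had 4 genes tested and 0 called, with a median of −0.08. PSAT1, of serine synthesis, stood at 60.7 ± 18.3 and 48.6 ± 13.2 FPKM (−0.31), PSPH, also of serine synthesis, at 2.77 ± 0.834 and 2.47 ± 0.936 (−0.13) and the D-serine transporter SLC7A10 at 10.7 ± 1.14 and 10.5 ± 1.45 (−0.03). Unlike the AMPA subunits, all 4 were lower in library 2 of both breeds, with medians of −0.70 in Rongchang and −0.58 in wild boar. The share of all genes lower there in both was not computed. The astrocyte, oligodendrocyte, microglia, blood, and endothelium and pericyte lists also had 0 tested genes higher there in both breeds. Of the neuronal markers 6 of 7 were higher there in both, and of the excitatory ones 4 of 4. Of the RNA editing genes 0 of 3 were called. ADARB1, the enzyme that edits GRIA2, stood at 10.3 ± 1.23 and 10.2 ± 1.28 FPKM (−0.01), ADAR at 11.7 ± 1.62 and 10.7 ± 2.05 (−0.13) and ADARB2, a relative without known editing activity, at 3.89 ± 0.313 and 2.97 ± 0.357 (−0.30), with no overlap between the breeds. Among all 64 genes, 7 were lower without overlap and 1 was higher, beside 11.4% and 1.12% of all genes tested.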

How the data were processed

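Libraries were stranded (dUTP method), made from bead-selected poly(A) RNA after TRIzol extraction, and sequenced as 100-bp read pairs on an Illumina HiSeq, per the labels' protocols. The authors deposited 1 FPKM value per gene and library; the header names no unit, which was judged from the values and from TopHat2 2.0.11, Cufflinks 2.2.1 and Cuffdiff, tools named without a role in the submitters' processing notes. The sources used here give no build, annotation or strand setting. FPKM carry no counts, so depth per library is unknown and no depth-based interval is given. Symbols matched 10937 of 18225 identifiers (60.0%). A gene with several identifiers was taken from that with the highest mean.

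Breeds were compared with limma 3.58.1 in R 4.3.3 (two-sided, mean-variance trend) on log2(FPKM + 1), keeping genes that reached 1 FPKM in 3 or more libraries, with Benjamini-Hochberg adjustment over all genes tested and a threshold of 0.05. Ratios were tested by exact permutation of libraries (scipy 1.17.1). The labels do not say that the animals are independent in origin, so the p-values rest on the library-to-library spread, which may be technical. On 20 simulated tables of 13152 genes the procedure recovered 47.9% of changes of 2 times and 89.6% of those of 4 times, at an average of 6.6 false calls. Noise was drawn independently for each gene and library, from the spread of that gene within the breeds. Neither the likeness of same-numbered libraries nor changes under 2 times were simulated, so these rates do not apply to the subunit differences. Members and lists were chosen with earlier results of these data known. All subunits are named, and per list up to 3 genes with the smallest p and the most abundant one; for likeness, the 3 nearest genes. Some genes that this rule names are not reported here. Alternatives changed the pseudocount, filter, scaling, trend, weights, block and libraries. As a check of pairing, libraries sharing a number deviated together from the means of their breeds, with correlations of 0.28, 0.59 and 0.37. Other pairs had correlations of −0.45 to 0.12. Deviations within a breed cancel by construction, so positive values in some pairs bring negative ones in others. The contrast is thus in part built in, and the pairing by number comes from the data alone.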

Additional observations from a re-analysis of the deposited data

How the results depend on the processing

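The number of subunit genes called was 0 in all 19 alternatives, and so was that of the other glutamate synapse genes. Among all genes, 1 was called as reported and with the replicate block, 3 with a pseudocount of 0.1 FPKM, 0 with a minimum mean of 5 FPKM (29 higher and 376 lower at an unadjusted p under 0.05, limma), 3 without both libraries numbered 2, 2 when median scaling was added to that (chosen after seeing the data), and 1 to 4 when a library was left out (4 without Rongchang 1, Rongchang 2 or wild boar 1). The block changed no call among the subunits and the glutamate synapse genes. The log2 fold changes of GRIA1 to GRIA4 and GRIN3A kept their sign in every alternative run; with a library left out GRIA1 ranged from −0.54 to −0.15, GRIA2 from −0.57 to −0.05, GRIA3 from −0.64 to −0.19 and GRIA4 from −0.37 to −0.15. GRIN2B reversed without Rongchang 1 (−0.12), Rongchang 3 (−0.02) or wild boar 2 (−0.09). GRIN2D reversed with median scaling (0.0759, with or without the block), quantile normalization (0.0936) and neuronal scaling (0.0092), and ranged from −0.1549 to 0.0424 with a library left out, above 0 without Rongchang 1, wild boar 1 or wild boar 3. Log2 ratio differences ranged with a library left out from −0.16 to 0.0258 for GRIA1 to GRIA2, −0.14 to 0.20 for GRIA4 to GRIA2, −0.47 to 0.22 for GRIN2D to GRIN2B, −0.18 to 0.0608 for AMPA to NMDA sums and −0.0764 to 0.10 for GRIA1 to GRIA3; without both libraries numbered 2 GRIA4 to GRIA2 reversed to −0.0101. The cause of these reversals was not tested. With 1 identifier per subunit, summing identifiers gives the same ratios. The limit is 3 libraries per breed.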
